A study of Mus musculus with 4 samples.

Results

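Late G1-phase RNA of mouse embryonic stem cells (ESCs) was examined for the 10 genes that write, copy, oxidise and remove cytosine methylation: Dnmt1, Dnmt3a, Dnmt3b, Dnmt3l, Uhrf1, Uhrf2, Tet1, Tet2, Tet3 and Tdg. The genes were taken by their Ensembl identifiers from a table of 14533 genes, in which each of the 10 had a single row, and all 10 also passed the expression filter that 13005 genes passed. The RNA came from ESCs held for long periods either in medium with fetal calf serum and LIF (serum ESCs), or in the serum-free Ndiff 227 medium with LIF, the GSK3 inhibitor CHIR99021 and the MEK inhibitor PD0325901 (2i ESCs). Cells were sorted by cell cycle phase. There were 2 libraries per condition and 4 in all, and the comparison asked which genes differ in G1-phase between the conditions. The sample labels and the study give late G1-phase, whereas the series text gives early G1-phase. The replicates are described as biological, without a statement of which step (culture, sort or extraction) was repeated, and p-values measure the spread between these libraries. No cell line is named in the labels.

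DNA methylation in mammals sits mainly on cytosines followed by guanine (CpG). DNMT3A and DNMT3B set new marks with the help of the catalytically inactive DNMT3L, and after each round of DNA replication UHRF1 recognises the hemimethylated site and recruits DNMT1, which copies the mark to the new strand. TET1, TET2 and TET3 oxidise 5-methylcytosine stepwise, and TDG excises the most oxidised forms so that base excision repair can restore cytosine. ESCs grown in 2i are well known for a genome with much less methylation than that of serum ESCs. RNA was measured here, and neither protein nor methylation.

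Values are normalized counts, that is gene counts divided by a scaling factor for each library. Whole reads totalled 18939401 to 26570098 per library. The 10 most abundant genes took 50.6% and 17.5% of the counts of serum replicates 1 and 2, and 34.7% and 25.5% of those of 2i replicates 1 and 2. Across genes, log2 values of the serum replicates had a Pearson correlation of 0.808 and those of the 2i replicates one of 0.628, against 0.782 for serum and 2i replicate 1 and 0.815 for serum and 2i replicate 2. The 2i replicates were thus no closer to each other than serum and 2i libraries of the same replicate number were. Serum and 2i libraries of unlike replicate number were not compared in this way. The 8 markers of pluripotent cells summed to 52047 and 68239 in serum ESCs and to 53446 and 66564 in 2i ESCs. Of the 7 primitive endoderm markers 3 had a row (Gata4, Gata6 and Sox17), with sums of 25.0 and 67.1 in serum ESCs and of 272 and 229 in 2i ESCs. Of the 8 fibroblast markers 3 had a row, with sums of 304 and 239 in serum ESCs and of 427 and 136 in 2i ESCs. The part of these features in the results below was not tested. In RNA of whole sorted populations, fewer cells with a transcript and less transcript per cell cannot be told apart.

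Of the 10 genes, 9 had a higher fitted level in serum ESCs than in 2i ESCs, against 50.3% of all genes tested. The median log2 fold change of the 10 genes, serum over 2i, was 0.90, and that of all genes tested was 0.0047. Both serum values lay above both 2i values for 6 genes (Dnmt1, Uhrf2, Dnmt3a, Dnmt3b, Tet2 and Tdg), the groups overlapped for 4 (Uhrf1, Dnmt3l, Tet1 and Tet3), and no gene had both serum values below both 2i values. Among all genes tested, 20.5% had both serum values above and 19.4% had both below.

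None of the 10 genes passed the test, which asked for a Benjamini-Hochberg adjusted p under 0.05 over all genes in limma and a fold change beyond 2. Only 0.0154% of all genes passed it. edgeR on the whole reads also called 0 of the 10 and 0% of all genes, and DESeq2 called 0 of the 10 and 1.93% of all genes. At an unadjusted p under 0.05 with a fold change beyond 2, limma gave 3 of the 10 genes (Dnmt3a, Dnmt3b and Tdg), all higher in serum ESCs, where 2.97% of all genes were found on the serum side and 3% on the 2i side. Without any test, 4 of the 10 exceeded a 2-fold higher level in serum ESCs, namely these genes and Dnmt3l, against 9.89% of all genes.

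**Figure D1:**
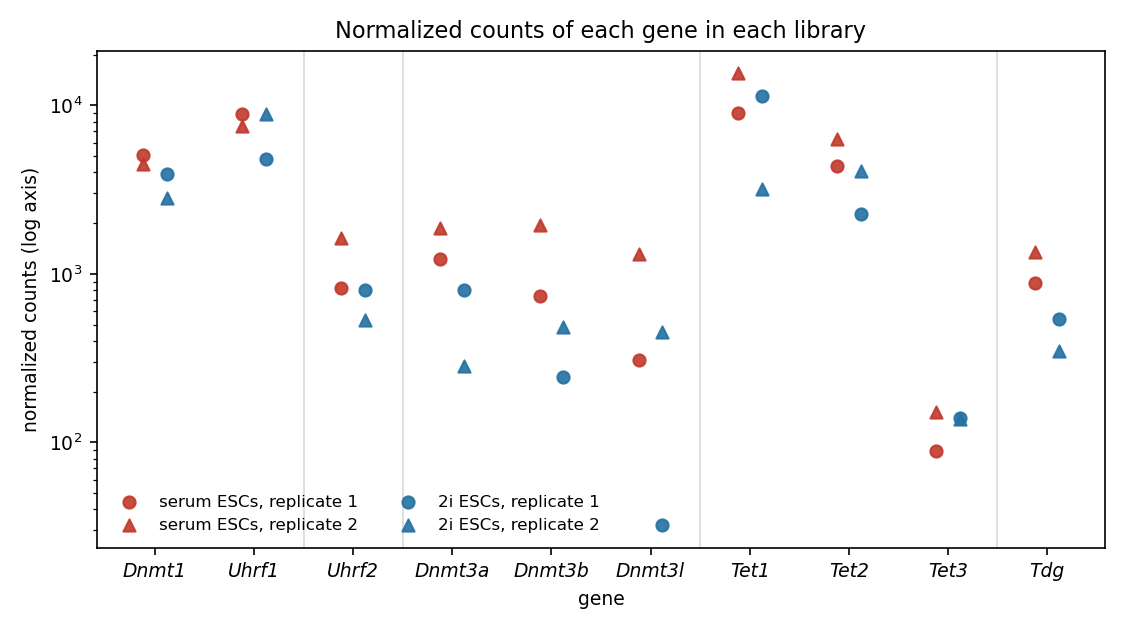
Normalized counts (log axis) of the 10 genes in each of the 4 libraries, with serum ESCs in red, 2i ESCs in blue, circles for replicate 1 and triangles for replicate 2, and grey lines between maintenance, the Uhrf1 paralog, de novo, oxidation and excision genes. The 2 groups are apart for 6 genes and overlap for Uhrf1, Dnmt3l, Tet1 and Tet3, and the lowest point is Dnmt3l in 2i replicate 1, at 32.2.

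The de novo methylation genes had the highest fitted fold changes of the set over all 4 libraries. This order changed when a library was left out. Without 2i replicate 1, the log2 fold change of Dnmt3l (0.49) was below that of Tet1 (1.89). Without 2i replicate 2, that of Dnmt3a (0.91) was below that of Tet2 (1.21). Dnmt3a (ENSMUSG00000020661, mm9 chr12:3806007-3914443, plus strand) encodes a catalytic enzyme that sets new CpG methylation. It had 1226 and 1858 normalized counts in serum replicates 1 and 2, against 800 and 285 in 2i replicates 1 and 2. Both serum values were higher than both 2i values, and the nearest values of the groups were 1.53-fold apart. The log2 fold change was 1.66 (SE 0.61, 95% interval 0.19 to 3.13), with an adjusted p of 0.753 in limma. Leaving out a single library gave log2 fold changes from 0.91 (without 2i replicate 2) to 2.40 (without 2i replicate 1). Dnmt3a shares 133 exonic bases with Gm10485 on the opposite strand, which had no row.

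Dnmt3b (ENSMUSG00000027478, mm9 chr2:153475186-153513466, plus strand), the other catalytic de novo enzyme, had 740 and 1957 normalized counts in serum replicates 1 and 2, against 244 and 483 in 2i replicates 1 and 2. The groups were again apart, by 1.53-fold between their nearest values. Its log2 fold change was 1.81 (SE 0.64, 95% interval 0.28 to 3.34), with an adjusted p of 0.753 in limma, and it was 1.11 when serum replicate 2 was left out and 2.51 when serum replicate 1 was left out. The replicates moved differently for the catalytic pair: in 2i ESCs, Dnmt3a was lower in replicate 2 and Dnmt3b lower in replicate 1. The ratio of Dnmt3b to Dnmt3a counts was accordingly 0.604 and 1.05 in serum ESCs against 0.305 and 1.69 in 2i ESCs, so that the serum values lay between the 2i values.

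Dnmt3l (ENSMUSG00000000730, mm9 chr10:77504692-77526367, plus strand) encodes the cofactor that stimulates the de novo enzymes. It had 306 and 1318 normalized counts in serum replicates 1 and 2, against 32.2 and 451 in 2i replicates 1 and 2. The highest and the lowest of the 4 values belonged to serum and 2i ESCs, but 2i replicate 2 lay above serum replicate 1. The serum replicates differed 4.31-fold and the 2i replicates 14.0-fold. The 2i values rested on 31 and 465 whole reads, whose exact 95% Poisson intervals were 21.9 to 45.7 and 411 to 494 normalized counts, so counting error was smaller than the gap between these replicates (the intervals cover counting error only).

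The log2 fold change of Dnmt3l was 2.38 (SE 1.29, 95% interval −0.73 to 5.48), with an adjusted p of 0.753 in limma. Leaving out 2i replicate 1 gave 0.49, and leaving out 2i replicate 2 gave 4.26. Without serum replicate 2 the value was 1.33. With quantile normalization it was 3.07, and with edgeR on the whole reads 1.72. The start of Dnmt3l overlaps Aire on the minus strand, with 67 exonic bases in common, and the counting is not stated to use strand. Aire had 86.0 and 80.7 normalized counts in serum replicates 1 and 2, against 151 and 34.9 in 2i replicates 1 and 2.

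The annotated promoters of the de novo genes differed in CpG content. RefSeq gives 3 start sites for Dnmt3a, 1 for Dnmt3b and 3 for Dnmt3l, each taken here as a window of 300 bases, from 250 before to 50 after the start, on the build GRCm38.p6 (the expression table uses mm9, and no position was converted). CpG numbered 46, 47 and 18 in the windows of Dnmt3a, 30 in that of Dnmt3b, and 6, 4 and 3 in those of Dnmt3l. The median over 32841 promoter windows was 7, and Dnmt3l was the only one of the 10 genes with all its windows below it. To show this contrast, the window of Dnmt3b (chr2:153649199-153649498, plus strand) and the CpG-richest window of Dnmt3l (chr10:78042037-78042336, plus strand) follow, 5′ to 3′, with each CG in capitals.
Dnmt3b: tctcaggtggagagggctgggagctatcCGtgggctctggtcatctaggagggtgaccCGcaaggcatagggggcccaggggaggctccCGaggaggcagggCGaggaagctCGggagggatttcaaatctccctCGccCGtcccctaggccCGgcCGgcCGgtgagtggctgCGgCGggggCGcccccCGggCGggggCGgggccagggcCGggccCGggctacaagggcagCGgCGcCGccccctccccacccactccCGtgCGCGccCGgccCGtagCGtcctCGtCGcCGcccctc
Dnmt3l: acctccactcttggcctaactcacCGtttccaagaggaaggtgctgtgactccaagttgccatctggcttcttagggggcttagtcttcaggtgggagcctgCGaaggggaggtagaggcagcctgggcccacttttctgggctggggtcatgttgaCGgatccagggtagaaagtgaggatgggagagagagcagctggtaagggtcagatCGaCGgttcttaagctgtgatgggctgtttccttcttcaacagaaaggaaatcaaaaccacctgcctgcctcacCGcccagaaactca

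The maintenance genes had the smallest positive fitted fold changes of the set over all 4 libraries. Without 2i replicate 2, the log2 fold change of Tet1 (0.06) was below those of Dnmt1 (0.29) and Uhrf1 (0.77). Dnmt1 (ENSMUSG00000004099, mm9 chr9:20711650-20757317, minus strand) encodes the methyltransferase that copies methylation after replication. It had 5104 and 4492 normalized counts in serum replicates 1 and 2, against 3908 and 2805 in 2i replicates 1 and 2. Both serum values were above both 2i values, but the nearest were only 1.15-fold apart. Its log2 fold change was 0.53 (SE 0.46, 95% interval −0.58 to 1.65), with an adjusted p of 0.784 in limma, and it was 0.29 when 2i replicate 2 was left out and 0.77 when 2i replicate 1 was left out.

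Uhrf1 (ENSMUSG00000001228, mm9 chr17:56442744-56462909, plus strand) encodes the factor that brings DNMT1 to hemimethylated DNA. It had 8838 and 7551 normalized counts in serum replicates 1 and 2, against 4794 and 8901 in 2i replicates 1 and 2. The highest value of all was thus a 2i value, and the serum values lay between the 2i values. The log2 fold change was 0.32 (SE 0.54, 95% interval −0.98 to 1.62), with an adjusted p of 0.899 in limma, and it turned to −0.12 without 2i replicate 1. Leaving out 2i replicate 2 gave 0.77, and leaving out serum replicate 1 gave 0.21. Of all stretches of 43 bases (the read length) in its longest transcript, 65.5% occurred at a single place in the genome, and no other gene of the table held 100 or more of the others in its exons.

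Uhrf2 (ENSMUSG00000024817, mm9 chr19:30105003-30168212, plus strand), encodes a paralog of UHRF1 that does not replace it in maintenance. It had 819 and 1632 normalized counts in serum replicates 1 and 2, against 801 and 535 in 2i replicates 1 and 2. Serum replicate 1 and 2i replicate 1 differed by only 1.02-fold, the smallest gap among the genes without overlap. Its log2 fold change was 0.82 (SE 0.52, 95% interval −0.44 to 2.08), with an adjusted p of 0.758 in limma. It was 0.32 without serum replicate 2, 0.53 without 2i replicate 2 and 1.32 without serum replicate 1.

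E2F transcription factors drive genes of DNA replication at the end of G1-phase, and the promoters of the 10 genes were searched for the E2F-type words TTTGGCGC, TTTCCCGC, TTTGCCGC and TTTCGCGC on both strands. The 10 genes had 17 windows, and a word was present in 2 of them, a window of Dnmt1 and a window of Uhrf1. Of the 32841 windows of all genes, 2.27% held a word. In the Dnmt1 window (GRCm38.p6 chr9:20952574-20952873, minus strand), GCGCGAAA, the reverse complement of TTTCGCGC, began at base 32 and TTTGGCGC at base 284. In the Uhrf1 window (chr17:56304063-56304362, plus strand), TTTCGCGC began at base 66. No words overlapped each other. A match describes the letters and not a bound site, and other start sites of both genes held no such word. Both windows follow, 5′ to 3′, with the words in capitals.
Dnmt1: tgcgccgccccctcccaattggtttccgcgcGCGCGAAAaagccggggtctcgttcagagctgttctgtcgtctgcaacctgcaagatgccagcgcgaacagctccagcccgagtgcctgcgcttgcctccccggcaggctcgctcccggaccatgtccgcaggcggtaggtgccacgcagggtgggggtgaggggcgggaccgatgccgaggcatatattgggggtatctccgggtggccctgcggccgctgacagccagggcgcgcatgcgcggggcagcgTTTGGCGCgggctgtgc
Uhrf1: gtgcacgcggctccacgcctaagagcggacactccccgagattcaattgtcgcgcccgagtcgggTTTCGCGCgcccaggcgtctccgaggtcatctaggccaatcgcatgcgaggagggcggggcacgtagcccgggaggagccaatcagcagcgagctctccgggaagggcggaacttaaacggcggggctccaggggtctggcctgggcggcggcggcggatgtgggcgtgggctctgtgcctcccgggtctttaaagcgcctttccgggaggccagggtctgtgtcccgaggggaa

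Both maintenance genes were set against Pcna, the sliding clamp of DNA replication, within each library, so that the scaling of the libraries did not enter. The ratio of Uhrf1 to Pcna counts was 1.67 and 1.09 in the serum replicates and 1.56 and 1.44 in the 2i replicates, and the groups overlapped. The ratio of Dnmt1 to Pcna was 0.967 and 0.650 in the serum replicates and 1.27 and 0.454 in the 2i replicates, again with overlap. Of the de novo genes, the ratio to Pcna was computed for Dnmt3b alone. The ratio of Dnmt3b to Pcna was 0.140 and 0.283 in serum and 0.0794 and 0.0781 in 2i, with both serum values above. Dnmt3a and Dnmt3l were not apart relative to Pcna. From 2i replicate 1 to serum replicate 1, the log2 difference was 0.61 for Dnmt3a and 0.78 for Pcna. From 2i replicate 2 to serum replicate 1, it was −0.56 for Dnmt3l and −0.23 for Pcna. The separation of Dnmt3b thus gives no contrast between de novo and maintenance genes as groups.

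Of the TET genes, Tet1 and Tet2 had higher fitted levels in serum ESCs and Tet3 did not, and none passed the test. Tet1 (ENSMUSG00000047146, mm9 chr10:62267318-62361866, minus strand) encodes the main 5-methylcytosine oxidase of ESCs. It had 8958 and 15494 normalized counts in serum replicates 1 and 2, against 11296 and 3181 in 2i replicates 1 and 2. The 2i replicates lay on either side of serum replicate 1. The fitted log2 fold change was 0.97 (SE 0.74, 95% interval −0.80 to 2.75), with an adjusted p of 0.765 in limma. Leaving out 2i replicate 2 gave 0.06, leaving out 2i replicate 1 gave 1.89, and leaving out serum replicate 2 gave 0.58.

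Tet2 (ENSMUSG00000040943, mm9 chr3:133126643-133207354, minus strand), the other TET gene with a substantial level in ESCs, had 4337 and 6304 normalized counts in serum replicates 1 and 2, against 2263 and 4062 in 2i replicates 1 and 2. The groups did not overlap, with a gap of 1.07-fold between serum replicate 1 and 2i replicate 2. Its log2 fold change was 0.79 (SE 0.52, 95% interval −0.47 to 2.04), with an adjusted p of 0.759 in limma, and it was 0.36 when 2i replicate 1 was left out and 1.21 when 2i replicate 2 was left out. Its promoter window held the most CpG of all 17 windows, 57.

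Tet3 (ENSMUSG00000034832, mm9 chr6:83312367-83391672, minus strand), best known from the oocyte and zygote, had 89.0 and 151 normalized counts in serum replicates 1 and 2, against 140 and 138 in 2i replicates 1 and 2. Both 2i values lay between the serum values. Its log2 fold change was −0.26 (SE 0.61, 95% interval −1.72 to 1.20), with an adjusted p of 0.929 in limma. It was 0.12 without serum replicate 1, whose 89 whole reads had a 95% Poisson interval of 71.5 to 110 normalized counts, and 0.026 with quantile normalization.

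The composition of the TET transcripts differed most between the 2i replicates. Tet1 supplied 66.9% and 70.6% of the normalized counts of the 3 genes in serum replicates 1 and 2, against 82.5% and 43.1% in 2i replicates 1 and 2. Tet2 supplied 32.4% and 28.7% in serum ESCs against 16.5% and 55.0% in 2i ESCs. These shares are not corrected for length. Per kb of the longest transcript, Tet2 also exceeded Tet1 in 2i replicate 2, with 443 against 221 normalized counts, and in none of the other 3 libraries. Relative to Tet3 both were higher in serum. The ratio of Tet1 to Tet3 was 101 and 103 in serum against 80.6 and 23.1 in 2i. That of Tet2 to Tet3 was 48.7 and 41.8 in serum against 16.1 and 29.5 in 2i. Tet3 had only 89 to 155 whole reads per library, and its counting error was not carried into these ratios.

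Tdg (ENSMUSG00000034674, mm9 chr10:82092573-82113544, plus strand) encodes the glycosylase that removes the oxidised bases. It had 880 and 1354 normalized counts in serum replicates 1 and 2, against 540 and 349 in 2i replicates 1 and 2. Both serum values were higher than both 2i values, and the gap of 1.63-fold between the nearest values was the widest of the 6 genes without overlap. Its log2 fold change was 1.33 (SE 0.48, 95% interval 0.16 to 2.50), with an adjusted p of 0.753 in limma. Leaving out a single library gave 1.01 to 1.64.

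The value of Tdg is uncertain because of near-identical copies. Only 19.7% of its stretches of 43 bases occurred at a single place in the genome. The exons of Gm5806 (mm9 chr15:82346705-82349711, annotated as protein coding) held 49.5% of them, and those of the pseudogene Gm9855 (mm9 chr10:41773919-41775160) held 27.7%. Gm5806 had 291 and 434 normalized counts in serum replicates 1 and 2, against 329 and 151 in 2i replicates 1 and 2. Gm9855 had 426 and 665 in serum ESCs against 190 and 189 in 2i ESCs. The sum of the 3 rows, chosen after the data were seen, was 1598 and 2453 in serum and 1059 and 690 in 2i, with a log2 fold change of 1.21 (SE 0.48) and an adjusted p of 0.753 in limma. Tdg also overlaps Glt8d2 on the opposite strand, over 367 exonic bases, and Glt8d2 had no row.

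**Figure D2:**
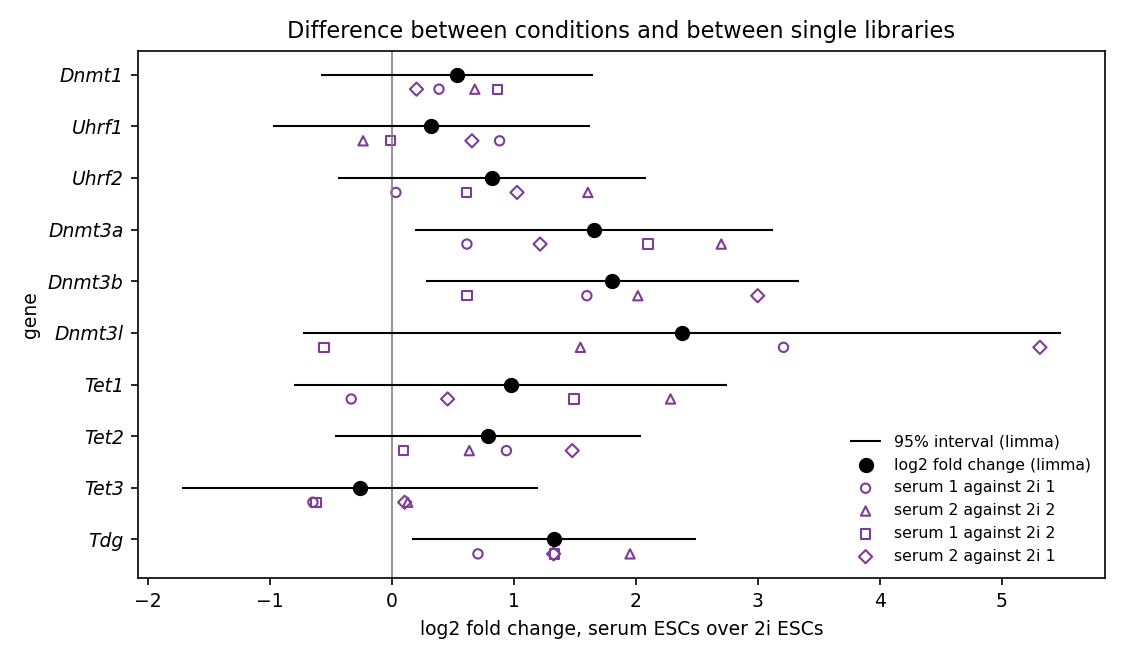
Log2 fold change of serum over 2i ESCs for each gene (black point, limma) with its 95% interval (line), and the log2 ratios of single libraries below it (open symbols). The interval lies above 0 for Dnmt3a, Dnmt3b and Tdg before correction for the number of genes, and the single ratios of Uhrf1, Dnmt3l, Tet1 and Tet3 fall on both sides of 0.

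The 10 genes did not vary as a unit between replicates. Serum replicate 2 was higher than serum replicate 1 for 8 genes, the exceptions being Dnmt1 and Uhrf1. In 2i ESCs, replicate 1 was higher for 6 genes (Dnmt1, Uhrf2, Dnmt3a, Tet1, Tet3 and Tdg) and replicate 2 for 4 (Uhrf1, Dnmt3b, Dnmt3l and Tet2). The difference between the 2i replicates exceeded that between the conditions for 4 genes, and the difference between the serum replicates did so for 2. The median over the 10 genes was 0.66 for serum replicate 1 over 2i replicate 1, 1.58 for serum replicate 2 over 2i replicate 2, 0.61 for serum replicate 1 over 2i replicate 2 and 1.12 for serum replicate 2 over 2i replicate 1, on the log2 scale. Each of the 4 medians was above 0, with the higher ones for serum replicate 2. Over all genes tested the medians were 0.012, 0, −0.0068 and 0.027, in the same order. The counts of genes by replicate given here were not taken over all genes.

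Ratios between the genes within a library gave less summed Dnmt3a and Dnmt3b transcript relative to Dnmt1 and to the TET genes in 2i ESCs. The ratio of Dnmt1 to the sum of Dnmt3a and Dnmt3b was 2.60 and 1.18 in serum replicates 1 and 2, against 3.74 and 3.65 in 2i replicates 1 and 2. Both serum ratios were below both 2i ratios, by 2.11-fold between geometric means. The ratio of the summed TET genes to the same sum was 6.81 and 5.75 in serum and 13.1 and 9.61 in 2i, and was 1.79-fold lower in serum. The separation held for the sum of Dnmt3a and Dnmt3b, whereas Dnmt3b alone overlapped relative to Dnmt1. From 2i replicate 2 to serum replicate 1, the log2 difference was 0.86 for Dnmt1 and 0.62 for Dnmt3b. Dnmt3l was left out of that sum. With Dnmt3l included, Dnmt1 supplied 69.2% and 46.7% of the normalized counts of the DNMT genes in serum replicates 1 and 2. In 2i replicates 1 and 2 Dnmt1 supplied 78.4% and 69.7%, so that serum replicate 1 and 2i replicate 2 nearly met. The ratio of Uhrf1 to Dnmt1 overlapped, with 1.73 and 1.68 in serum against 1.23 and 3.17 in 2i. Of 17 ratios computed, 7 had no overlap, and the ratios were chosen with the values of the genes known and were not tested. Among all single genes tested, 20.5% had both serum values above both 2i values and 19.4% had both below. No such share was computed for ratios of other genes, so the count of 7 singles out nothing about these ratios.

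Per length of the longest transcript, Uhrf1 had the highest mean level of the 10 genes in both conditions. Counts were divided by the length of the longest annotated transcript. Uhrf1 had a mean of 2285 normalized counts per kb in serum ESCs and of 1910 in 2i ESCs, and its range lay above that of Dnmt1, the next gene, which had 911 and 638. Tet1 (851 and 504) and Tet2 (580 and 345) followed in both conditions, and neither Dnmt1 and Tet1 nor Tet1 and Tet2 differed from each other beyond the spread of the replicates.

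The lower part of the order held the de novo genes, Uhrf2 and Tdg. In serum ESCs, Dnmt3l (446 normalized counts per kb), Uhrf2 (347), Tdg (319), Dnmt3b (312) and Dnmt3a (159) came next, each with a range that overlapped its neighbour's. In 2i ESCs the order was Uhrf2 (189), Dnmt3l (133), Tdg (127), Dnmt3b (84.1) and Dnmt3a (56.0), and Tet2 was above Uhrf2 without overlap. Tet3 was last in both, with 11.0 in serum and 12.7 in 2i, and its range was below that of Dnmt3a. The order depends on the length used. With the median length of the protein-coding transcripts, 8 of the 10 genes changed rank, and Uhrf1 and Tet3 stayed first and last by their means. Dnmt3a moved furthest, from rank 9 to rank 3 in both conditions, since its longest transcript has 9685 bases and its median one 814. Uhrf1 was then no longer above the others in every library. In serum replicate 2, Tet1 had 2532 and Dnmt3a 2283 normalized counts per kb against 2220 for Uhrf1. In 2i replicate 1, Tet1 had 1846 against 1409 for Uhrf1.

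**Figure D3:**
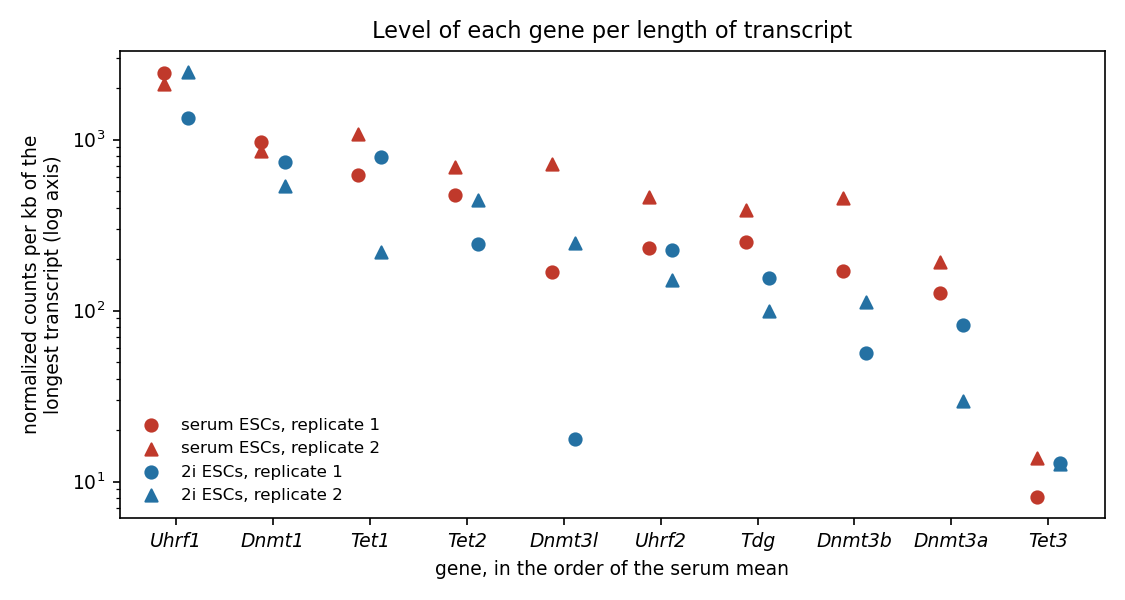
Normalized counts per kb of the longest transcript (log axis) in each library, with the genes in the order of the serum mean, serum ESCs in red and 2i ESCs in blue, circles for replicate 1 and triangles for replicate 2. Uhrf1 lies above and Tet3 below the other genes in all 4 libraries.

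Partners that guide the enzymes had mixed differences, and 11 of the 12 listed had a row. Of these, 8 had a positive log2 fold change, the median was 0.39, and none passed the adjusted test in limma. The median was 0.0053 without 2i replicate 1, 0.01 without serum replicate 2, 0.63 without serum replicate 1 and 0.77 without 2i replicate 2. Hells, a chromatin remodeler needed for methylation of repeats, had a log2 fold change of 1.15 (SE 0.62), and Lig1, the ligase that recruits UHRF1 to replicating DNA, had 0.93 (SE 0.43). Trim28 and Zfp57, which keep methylation at imprinted sites, had 0.08 (SE 0.70) and 0.26 (SE 0.49). Prdm14, a repressor of the de novo genes in ESCs, and Cxxc5, a CpG-binding protein, had both serum values below both 2i values. Their log2 fold changes were −0.78 (SE 0.54) and −0.59 (SE 0.54). For Prdm14 the nearest values were 569 in serum replicate 1 and 578 in 2i replicate 1, while 2i replicate 2 had 1275. For Cxxc5 they were 215 in serum replicate 2 and 241 in 2i replicate 2.

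Dppa3 had the largest absolute log2 fold change of the partners. Its product binds UHRF1 and keeps it from chromatin. Dppa3 had 18.0 and 17.5 normalized counts in serum replicates 1 and 2, against 244 and 391 in 2i replicates 1 and 2. Both serum values were below both 2i values, and the gap between the groups was wider than that between the replicates of either. For Dppa3 the log2 fold change was −4.05 (SE 0.74), with an adjusted p of 0.753 in limma, whereas DESeq2 on the whole reads gave an adjusted p of 5.61e-07 and edgeR one of 0.692. Within a library, the ratio of Uhrf1 to Dppa3 counts was 491 and 432 in serum and 19.7 and 22.8 in 2i.

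Methyl-CpG readers and base excision repair genes had lower medians than the 10 genes described. Of 7 readers, 6 had a positive log2 fold change, and the highest value was that of Mbd3, a subunit of the NuRD complex (0.98, SE 0.45). The median of the readers was 0.20, with 0.48 without 2i replicate 1, 0.40 without serum replicate 2 and 0.10 without 2i replicate 2. Of 12 base excision repair genes, 7 had a positive log2 fold change, and the median of 0.11 became −0.20 without 2i replicate 1, 0.02 without 2i replicate 2 and 0.03 without serum replicate 1. The range ran from −0.77 for Smug1, a uracil glycosylase, to 0.79 for Neil3, a glycosylase of oxidised bases. None of these genes reached an unadjusted p under 0.05 in limma.

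Transcripts of genes for the supply of methyl donor and TET cofactor were split in direction, and the metabolites were not measured. Of 8 genes, 6 had a positive log2 fold change, and the median of 0.45 was 0.16 without 2i replicate 1, 0.78 without 2i replicate 2 and 0.30 without serum replicate 2. Mat2a, which makes the methyl donor S-adenosylmethionine, had 2485 and 4937 normalized counts in serum replicates 1 and 2, against 734 and 2837 in 2i replicates 1 and 2, with a log2 fold change of 1.28 (SE 0.74). For Mat2a, 2i replicate 2 lay above serum replicate 1, so the conditions overlapped. Idh1 and Idh2, which make the TET cofactor α-ketoglutarate, had log2 fold changes of −0.96 (SE 0.79) and −0.99 (SE 0.60). Idh1 overlapped between conditions, with 3205 and 1991 normalized counts in serum replicates 1 and 2, against 2232 and 10804 in 2i replicates 1 and 2. Idh2 was barely apart, with nearest values of 1111 in serum replicate 1 and 1119 in 2i replicate 1. Idh3a, also listed for the cofactor, went the other way, with 0.85 (SE 0.45) and both serum values above both 2i values. None of the 8 reached an unadjusted p under 0.05 in limma.

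Most of the listed cell cycle genes had a positive log2 fold change, and none passed the adjusted test in limma. Of 14 DNA synthesis genes, 13 had a positive value, the exception being Cdt1, a replication licensing factor (−0.30, SE 0.61). Their median was 0.54, and it was 0.16 when 2i replicate 1 was left out and 0.85 when 2i replicate 2 was left out. Their summed counts were 51254 and 60112 in serum replicates 1 and 2, against 28676 and 48611 in 2i replicates 1 and 2. Of 10 G2/M genes, 9 had a positive value, the exception being Cdk1 (−0.01, SE 0.54), the median was 1.08, and their sums were 22949 and 31296 in serum and 14622 and 13626 in 2i. Both sums were higher in serum ESCs without overlap, although the libraries of 6 DNA synthesis genes and 2 G2/M genes overlapped between conditions. In limma 3 DNA synthesis genes (Cdc6, Ccne1 and Rrm2) and 5 G2/M genes (Ccna2, Plk1, Aurka, Bub1 and Cdc20) were higher at an unadjusted p under 0.05 with a fold change beyond 2. Among all genes tested, 2.97% passed these thresholds on the serum side, and 50.3% had a positive log2 fold change. The libraries overlapped between conditions for 7818 of the 13005 genes tested. The part of cell cycle position in the values of the methylation genes was not tested.

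**Figure D4:**
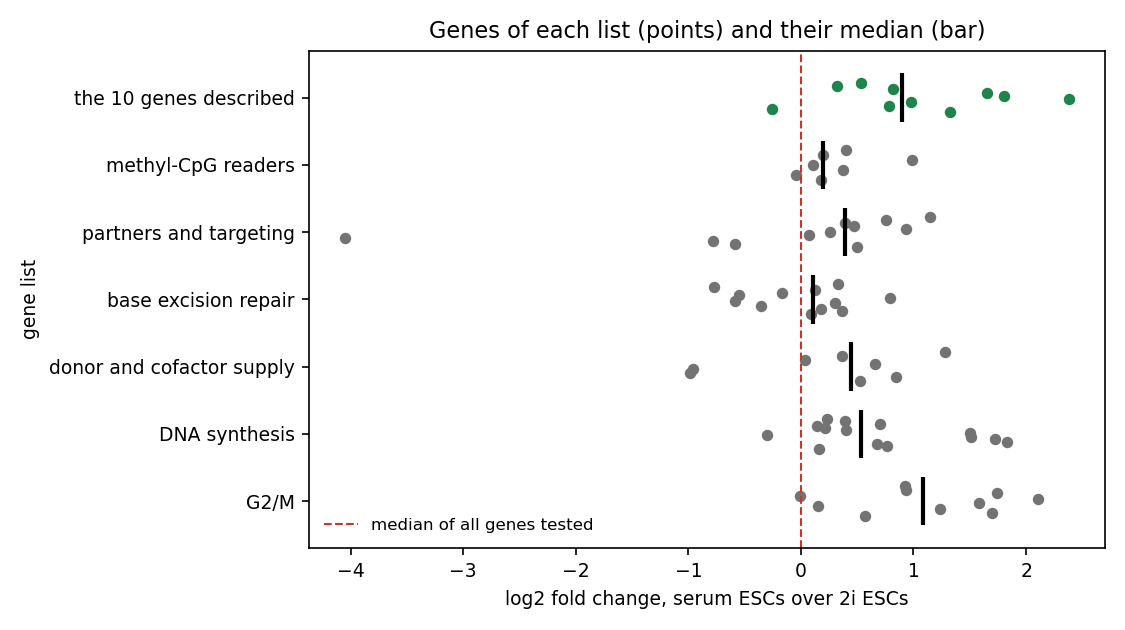
Log2 fold change of serum over 2i ESCs for each tested gene (points) of the 10 genes described and of 6 lists, with the median of each list (black bar) and the median of all genes tested (dashed line). The medians run from 0.11 for base excision repair to 1.08 for G2/M, with 0.90 for the 10 genes described, and Dppa3 at −4.05 is the point furthest to the left.

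The genes whose pattern over the 4 libraries came nearest to a given gene were found by the Euclidean distance between centred log2 profiles, among all genes tested. For Uhrf1 these were Mrpl40 (distance 0.051), Flywch1 (0.054) and Dcaf11 (0.095). For Dnmt3b they were Aggf1 (0.22), Zfp936 (0.29) and Ndc80 (0.30). Dnmt3l had no neighbour as near, with Gm14421 at 0.67, Gm16096 at 0.81 and Stmn1 at 1.17. With 4 libraries such neighbours describe the pattern and nothing further.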

How the data were processed

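RNA was measured in 2 libraries of serum ESCs and 2 of 2i ESCs. From sorted cells the authors took total RNA, depleted it of ribosomal RNA, primed fragments at random, sequenced single reads of 43 bases, aligned them with Bowtie to mm9 and estimated expression with MMSeq. Tool versions and the annotation are not given in the sources used here. The deposited values are a signal, gene counts divided by 1 scaling factor per library. All values of each library (100%) were whole multiples of 1 step within 0.01 of a read, and whole reads recovered this way entered the count tests. For serum replicate 1 the step, 1.0005, is close to 1.

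The main test was limma 3.58.1 under R 4.3.3, with a variance trend, no replicate term and values taken as log2(normalized count + 1). It covered genes whose mean reached 50 normalized counts in serum or in 2i ESCs. Because of the pseudocount of 1, fold changes of low genes are understated. A count test was not the main test because the values were scaled; edgeR 4.0.16 and DESeq2 1.42.0 were alternatives, beside other pseudocounts (0.5 and 5), filters, scalings, a replicate block, no trend, protein-coding genes alone and leaving out each library. An exact permutation test of 2 against 2 cannot go below 0.333 and was not used. The fit was tested on simulated data.

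The 10 genes and all lists were chosen with earlier results of these data known. The rule allowed every gene on a list to be named. Positions, lengths and names came from GENCODE vM1, which describes mm9 and held 14462 of the genes, and promoters from RefSeq on GRCm38.p6, where all 10 genes matched. Depth limits precision as given by the Poisson intervals. Figures were drawn with matplotlib 3.10.9.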

Additional observations from a re-analysis of the deposited data

How the results depend on the processing

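Every alternative left the log2 fold changes of Dnmt1, Uhrf2, Dnmt3a, Dnmt3b, Dnmt3l, Tet1, Tet2 and Tdg above 0. Uhrf1 changed direction on leaving out a library (range −0.12 to 0.77), and Tet3 did so too (−0.64 to 0.12) and under quantile normalization (0.026). Tet3 was not tested under a mean of at least 200. The median of the 10 genes ran from 0.60 to 1.34 over the fits that leave out a library, in which the lone library of a condition is assumed to vary like the other condition. No gene of the set was called by limma without the block, edgeR or DESeq2, and the smallest adjusted p outside the replicate block was 0.167. The adjusted p of the set ranged from 0.0375 to 1 over all alternatives.

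Over all genes, 0 were called higher in serum ESCs and 2 higher in 2i ESCs. The latter became 4 with a mean of at least 200, 1 without the trend, 0 with protein-coding genes alone, 0 with edgeR, and 0 to 0 on leaving out a library. DESeq2 called 73 genes higher in serum ESCs and 178 higher in 2i ESCs. The cause was not tested. Upper quartile scaling moved the median of all genes to −0.15, and the mean of at least 200 moved it to 0.12.

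The replicates share only a number, since no label pairs them. The difference of replicate 2 from replicate 1 in serum ESCs correlated with that in 2i ESCs across genes (Pearson r 0.480, a description). With the replicate block 44 genes were called higher in serum ESCs and 159 higher in 2i ESCs, and 1 of the 10 genes was called, Dnmt3l (adjusted p = 0.0375 in limma). Dppa3 then had an adjusted p of 0.00941. The block changed no other call among the 10 genes.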
